A study of Mus musculus with 10 samples.

Results

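The 55 genes described here encode integrins, semaphorins and plexins, with a few proteins that bind integrin tails. They are the genes whose symbol starts with Itga, with Itgb and a digit, with Sema and a digit from 3 to 7, or with Plxn, and for which the arrays hold at least 1 probe set annotated to that gene alone. Of 59 genes that match by name, 4 were left out by the rule (Itgae, Itgb7, Itgam and Sema4d), which left 55 of the 19938 genes measured. By family these are 16 integrin alpha chains, 8 integrin beta chains (Itgb2l among them, a relative of Itgb2), 3 integrin-binding proteins (Itgb1bp1, Itgb1bp2 and Itgb3bp, which the pattern takes in by name although they are no integrins), 19 semaphorins and 9 plexins.

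Integrins are adhesion receptors made of an alpha and a beta chain, and the pair decides which ligand is bound: cell surface molecules of the ICAM and VCAM kind, or matrix proteins such as laminin, collagen and fibronectin. Dendritic cells use them to hold on to other leukocytes and to the stroma of the spleen and lymph node. Semaphorins are secreted or membrane-bound guidance cues, and plexins are their main receptors, which act on small GTPases and the cytoskeleton. In the immune system several of these pairs work at the contact between dendritic cells and T cells.

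Total RNA of conventional type 1 dendritic cells (cDC1s) from mouse spleen was hybridised to 10 Affymetrix arrays. As labelled, 3 arrays are WT and 3 are Zeb2 KO, while the double knockouts, Nfil3 Zeb2 DKO and Zeb2 Id2 DKO, have 2 arrays each, so that all groups but WT are labelled as lacking Zeb2. Zeb2, Nfil3 and Id2 are transcriptional regulators. Age, strain, deleted exon, Cre driver and the gate used to purify the cells are not given in the sources used here, and the labels do not say whether replicates came from separate animals, so p-values measure the spread between these samples only. Values are log2 of the deposited intensities, differences are log2 differences between genotype means, and brackets hold 95% confidence intervals. Every difference was tested with limma over all 19938 genes, and a gene was called at a Benjamini-Hochberg adjusted p under 0.05.

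The labels were checked on the targeted genes. Nfil3 stood at 6.20 and 7.09 in Nfil3 Zeb2 DKO and between 9.98 and 10.77 on the other 8 arrays. Id2 stood at 5.01 and 4.98 in Zeb2 Id2 DKO and between 9.89 and 10.50 elsewhere. The Zeb2 probe set did not separate the genotypes by their label. It read 6.0, 5.93 and 6.30 in WT and 6.10, 6.27 and 5.40 in Zeb2 KO, while Nfil3 Zeb2 DKO had 6.46 and 6.24. Zeb2 Id2 DKO had 6.78 and 6.82, above all WT arrays (0.72 [0.24 to 1.21], adjusted p = 0.184). If its probes lie outside the deleted part this checks nothing about the deletion, so that the loss of Zeb2 rests on the labels here. All 9 cDC1 markers examined (such as Irf8, Batf3, Xcr1 and Clec9a) were well above the dim reference defined below, and their mean lay between 11.55 and 11.73 on all arrays. In each comparison of Zeb2 Id2 DKO with another genotype, 1 of the 9 was called. The third Zeb2 KO array stood apart: it correlated with the other Zeb2 KO arrays at 0.986 and 0.987, and they with each other at 0.996. Several results below are given with and without it.

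Markers of other cell types differed between groups. The mean of 14 neutrophil markers (11 above the dim reference in WT) ran from 6.53 to 6.77 on WT arrays and from 7.94 to 8.92 on those of Zeb2 KO. It was 7.07 and 7.67 for Nfil3 Zeb2 DKO, then 7.84 and 8.90 for Zeb2 Id2 DKO. In the Zeb2 Id2 DKO arrays, the erythroid mean (7 markers) was 7.78 and 7.96 against 6.84 to 7.30 in WT, and the plasmacytoid dendritic cell mean (7 markers) was 8.32 and 8.46 against 7.78 to 8.04. The first WT array and the second Zeb2 KO array had B cell means (9 markers) of 7.91 and 7.37, against 6.23 to 6.72 on the other arrays. The platelet and megakaryocyte mean (7 markers) was 7.07 on the first Nfil3 Zeb2 DKO array and 5.99 to 6.41 on the other 9. The cDC2 mean (7 markers) was 5.90 to 6.21 on WT arrays, 5.50 to 5.67 on those of Zeb2 KO and 5.76 and 5.80 on those of Zeb2 Id2 DKO, all lower than WT, and 5.79 and 6.12 for Nfil3 Zeb2 DKO. The monocyte mean (7) was 7.21 to 7.53 on Zeb2 KO arrays, below the WT arrays (7.55 to 7.86). The T cell mean (8) was 6.90 to 7.17 for WT, 7.36 and 7.30 for Nfil3 Zeb2 DKO, and 6.86 and 6.94 for Zeb2 Id2 DKO. Of its 8 markers 4 were called between Zeb2 Id2 DKO and WT. Red pulp macrophage means (11) were 6.29 to 6.61 for WT, 6.04 to 6.59 for Zeb2 KO and 6.46 and 6.42 for Nfil3 Zeb2 DKO. NK cell means (8) were 5.71 to 6.17, 5.81 to 5.92, and 6.04 and 6.12 in the same order. Zeb2 Id2 DKO lay below every WT array for both, at 6.12 and 6.28 for macrophages and 5.69 and 5.63 for NK cells. Between Zeb2 Id2 DKO and WT, 2 of the 11 macrophage markers and 1 of the 8 NK cell markers were called. So were 8 of 14 neutrophil, 2 of 7 plasmacytoid dendritic cell, 2 of 7 erythroid and 1 of 7 monocyte markers. Of the cDC2, platelet and B cell markers 0 were called, and of all genes 1.43%. The part of these cells in any difference below was not tested. In bulk samples, fewer cells of a type and less RNA per cell cannot be told apart.

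**Figure D1:**
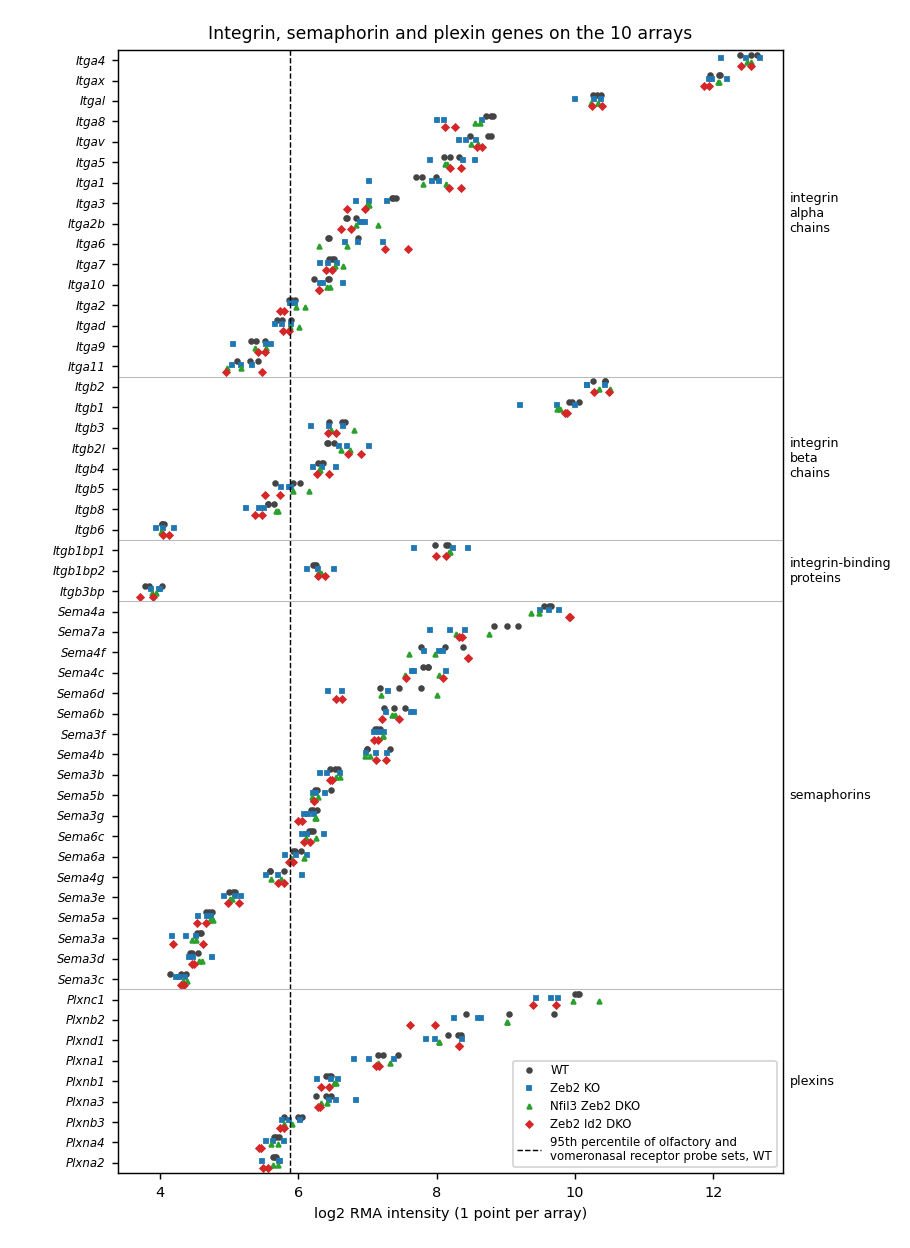
Level of each of the 55 genes on each of the 10 arrays (log2 RMA intensity on the horizontal axis, 1 point per array, shape and colour by genotype), grouped by family. The dashed line is the 95th percentile of olfactory and vomeronasal receptor probe sets in WT (5.87), and 41 of the 55 genes have a WT mean above it.

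The deposited values carry no detection call, so 1210 probe sets for olfactory and vomeronasal receptors, which dendritic cells are not known to express, served as a dim reference. Their WT means had a median of 4.05 and a 95th percentile of 5.87. Of the 55 genes 41 lay above that percentile in WT: 13 of 16 integrin alpha chains, 6 of 8 beta chains, 2 of 3 integrin-binding proteins, 13 of 19 semaphorins and 7 of 9 plexins. Across all genes 62.7% did. The other 14 were Itga9, Itga11 and Itgad, Itgb6 and Itgb8, Itgb3bp, the secreted semaphorins Sema3a, Sema3c, Sema3d and Sema3e with Sema4g and Sema5a, and the plexins Plxna2 and Plxna4. Probe sets differ in how well they bind, so these levels place a gene against the dim reference only and give no order among genes.

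The integrin chains that mark dendritic cells and leukocytes in general were far above the reference in every genotype and varied little. Itgax, which encodes CD11c, the chain by which dendritic cells are commonly gated, stood at 12.09, 12.08 and 11.95 in WT, at 11.98, 11.94 and 12.19 for Zeb2 KO, 12.08 and 12.07 for Nfil3 Zeb2 DKO, then 11.87 and 11.93 for Zeb2 Id2 DKO. The Zeb2 Id2 DKO arrays were the lowest, with a difference from WT of -0.14 [-0.35 to 0.07] (adjusted p = 0.762). Its coding neighbours on the chromosome are Itgam, which was left out here, and Itgad, which encodes a further partner of Itgb2. Itgad read 5.70, 5.89 and 5.77 in WT and 5.67 to 6.01 elsewhere, around the dim reference, and its second, dimmer probe set read 5.13 to 5.53 in WT and 5.37 to 5.89 elsewhere.

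Itgal, the alpha chain of LFA-1, which binds ICAMs, stood at 10.26, 10.37 and 10.32 in WT. The other genotypes lay between 10.00, on the third Zeb2 KO array, and 10.39, so that every group overlapped WT. Itgb2, the shared beta chain of Itgal, Itgax and Itgad, stood at 10.44, 10.43 and 10.26 in WT and between 10.18 and 10.51 elsewhere. The differences from WT in Zeb2 Id2 DKO were 0.00 [-0.25 to 0.25] for Itgal and 0.00 [-0.25 to 0.26] for Itgb2. Both intervals lie within 1.5-fold to either side.

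Itga4, which with Itgb1 forms the receptor for Vcam1, stood at 12.63, 12.54 and 12.39 in WT, 12.47, 12.68 and 12.11 for Zeb2 KO, 12.55 and 12.48 for Nfil3 Zeb2 DKO, then 12.55 and 12.40 for Zeb2 Id2 DKO. All groups overlapped. Itgb1 stood at 10.06, 9.91 and 9.96 in WT, 9.74, 10.00 and 9.21 for Zeb2 KO, 9.79 and 9.74 for Nfil3 Zeb2 DKO, then 9.85 and 9.88 for Zeb2 Id2 DKO. Its lowest value came from the third Zeb2 KO array, and the difference between Zeb2 KO and WT of -0.33 [-0.68 to 0.02] became -0.11 without that array. Itgav, a chain of receptors for matrix proteins and latent TGF-beta, stood at 8.79, 8.74 and 8.48 in WT and at 8.57, 8.42 and 8.32 in Zeb2 KO (-0.24 [-0.46 to -0.01], adjusted p = 0.646). In the double knockouts it lay between 8.49 and 8.66, within the WT range.

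**Figure D2:**
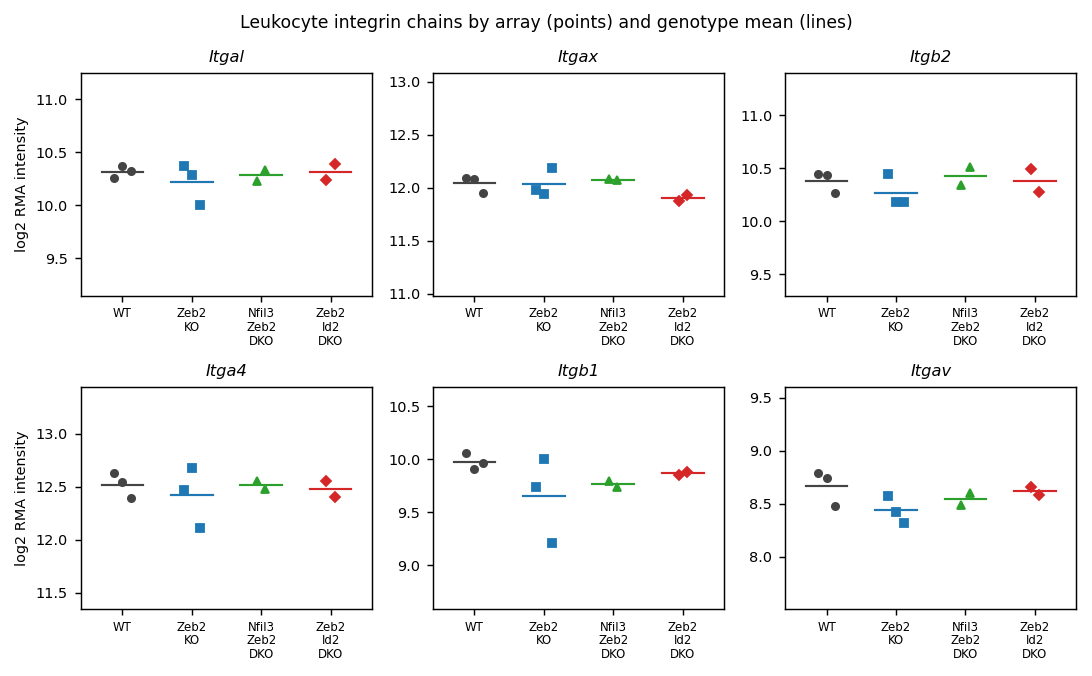
Itgal, Itgax, Itgb2, Itga4, Itgb1 and Itgav by genotype (log2 RMA intensity; points are arrays, lines are means; 3, 3, 2 and 2 arrays). Each axis spans at least 2 log2 units, and the genotype means of each gene lie within 0.33 of the WT mean.

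Itgb8, the partner of Itgav that activates latent TGF-beta on dendritic cells, lay under the dim reference on every array: 5.65, 5.56 and 5.56 in WT, 5.25, 5.50 and 5.44 for Zeb2 KO, 5.68 and 5.71 for Nfil3 Zeb2 DKO, then 5.48 and 5.38 for Zeb2 Id2 DKO. The arrays of Nfil3 Zeb2 DKO were above all others, and the difference from Zeb2 KO was 0.30 [0.09 to 0.50] (adjusted p = 0.420). Itgb3 (6.44, 6.63 and 6.67 in WT, 6.18 to 6.80 elsewhere) and Itgb5 (5.67, 6.03 and 5.92 in WT, 5.52 to 6.15 elsewhere), further partners of Itgav, overlapped WT in every genotype. Itga2b, the platelet integrin chain, stood at 6.70, 6.69 and 6.83 in WT, 6.90, 6.92 and 6.97 for Zeb2 KO, 7.15 and 6.84 for Nfil3 Zeb2 DKO, then 6.62 and 6.76 for Zeb2 Id2 DKO. Zeb2 KO (0.19 [-0.01 to 0.40], adjusted p = 0.697) and Nfil3 Zeb2 DKO (0.26 [0.03 to 0.48], adjusted p = 1.0) lay above WT without overlap. The value of 7.15 is from the array with the high platelet marker mean (7.07), while that mean was 6.04 to 6.41 in Zeb2 KO and 6.05 to 6.10 in WT.

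No member was called in any of the 6 comparisons between genotypes or in the F-test across the 4 genotypes. For Zeb2 KO against WT, 0 of 55 were called (0.0201% of all genes were) and 9 had an unadjusted p under 0.05 (16.4%, against 7.39% of all genes), 7 of them lower in Zeb2 KO. For Nfil3 Zeb2 DKO against WT, 0 were called (0.00502% of all genes), and 3 had an unadjusted p under 0.05 (5.45%, against 4.16%). For Zeb2 Id2 DKO against WT, 0 were called (1.43% of all genes), and 11 had an unadjusted p under 0.05 (20.0%, against 10.2%), 8 of them lower in Zeb2 Id2 DKO. Against Zeb2 KO, 0 were called in Nfil3 Zeb2 DKO (0.00502% of all genes) and 3 had an unadjusted p under 0.05 (5.45%, against 8.5%), while in Zeb2 Id2 DKO 0 were called (0.497%) and 7 had an unadjusted p under 0.05 (12.7%, against 7.35%). Between Zeb2 Id2 DKO and Nfil3 Zeb2 DKO, 0 were called (0.792% of all genes) and 12 had an unadjusted p under 0.05 (21.8%, against 11.5%), 9 of them lower in Zeb2 Id2 DKO. In the F-test 0 were called (0.757% of all genes) and 12 had an unadjusted p under 0.05 (21.8%, against 10.5%). Comparisons that share a group share its arrays.

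Most members differed little. The median absolute difference from WT was 0.07 for Zeb2 KO, 0.08 for Nfil3 Zeb2 DKO, then 0.09 for Zeb2 Id2 DKO, and 0.08, 0.07 and 0.08 over all genes. The signed median was -0.03, 0.01 and -0.05 (-0.00, 0.01 and -0.01 over all genes). The 95% interval lay within 2-fold to either side for 52, 55 and 51 of the 55 members in these comparisons and within 1.5-fold for 47, 48 and 45. By family, the median difference in Zeb2 Id2 DKO was -0.04 for alpha chains, -0.05 for beta chains, -0.04 for semaphorins and -0.13 for plexins. Negative values were found for 8 of 9 plexins, 36 of all 55 members and 10643 of all 19938 genes.

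**Figure D3:**
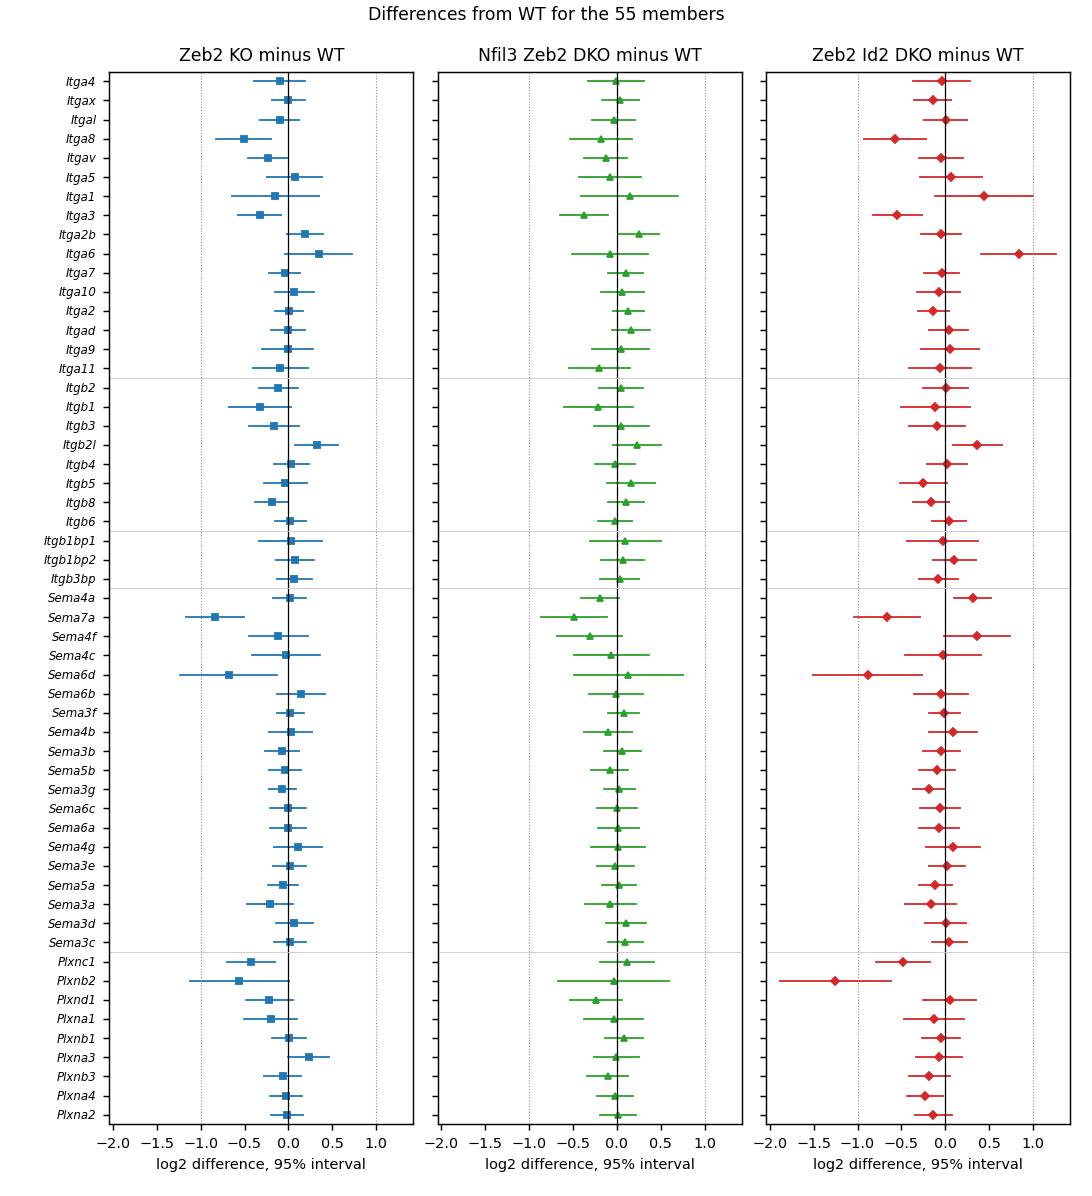
Difference from WT for each of the 55 members (log2, horizontal axis; points are estimates, bars 95% intervals from limma) in the 3 other genotypes, ordered as in the plot of levels by family; dotted lines mark 2-fold. Most intervals cross 0 and lie within the dotted lines, and Plxnb2 (-1.25) and Itga6 (0.84) reach farthest in Zeb2 Id2 DKO.

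Promoter sequences from RefSeq (GRCm38.p6; 250 bases before to 50 after the gene start) were at hand for 42 of the 55 members, 53 promoters in all. The E-box CACCTG, a motif bound by ZEB and E proteins, was searched on both strands and found in 11 of 53 (20.8%), against 20.2% of all 32851 promoters. The NFIL3 motifs TTACGTAA and TTATGTAA were in 0 of the 53, and in 0.119% and 0.938% of all promoters. Windows with the E-box are printed for Plxnb2, Itga3 and Sema6d, whose Zeb2 Id2 DKO arrays lay below WT, and for Sema4f, whose Zeb2 Id2 DKO arrays lay above all others, none of them called, since ZEB2 belongs to the ZEB family. Sema4f holds a second match, which lies near the end of its printed window in small letters, and Itgb8 holds 1. The other genes with a match are Itga9, Itga11, Itgb5, Itgb6, Sema3d and Sema4c. Sema7a, Plxnc1, Itga6, Itga8 and Sema4a are not among the genes with a match, though not every member had a promoter at hand. The printed windows run along the gene's strand, with the motif at their centre (CACCTG, or CAGGTG where it lies on the other strand) in capitals. They show letters only and say nothing of binding. The genes were picked by their Zeb2 Id2 DKO levels, and a part of ZEB2 in those levels was not tested. The Plxnb2 window is chr15:89174123-89174176, the Itga3 window chr11:95076880-95076933 (both minus strand), the Sema6d window chr2:124653367-124653420 (plus strand), and the Sema4f window chr6:82939850-82939903 (minus strand).
Plxnb2: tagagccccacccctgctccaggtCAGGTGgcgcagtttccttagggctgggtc
Itga3: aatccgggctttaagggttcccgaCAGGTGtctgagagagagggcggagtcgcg
Sema6d: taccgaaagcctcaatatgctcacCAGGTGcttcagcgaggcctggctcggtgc
Sema4f: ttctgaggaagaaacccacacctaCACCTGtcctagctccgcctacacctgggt

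Among the semaphorins, the ligands, the smallest p in the set was that of Sema7a, a membrane-anchored semaphorin that binds Plxnc1 and Itgb1-containing integrins. It stood at 8.83, 9.18 and 9.01 in WT, 7.91, 8.41 and 8.19 for Zeb2 KO, 8.75 and 8.28 for Nfil3 Zeb2 DKO, then 8.36 and 8.33 for Zeb2 Id2 DKO. Every array labelled as lacking Zeb2 was below every WT array. The difference from WT was -0.84 [-1.17 to -0.50] in Zeb2 KO (unadjusted p = 0.000216, adjusted p = 0.166), -0.49 [-0.87 to -0.12] in Nfil3 Zeb2 DKO (adjusted p = 0.992) and -0.66 [-1.04 to -0.29] in Zeb2 Id2 DKO (adjusted p = 0.104). In Zeb2 KO it ranged from -0.95 to -0.71 over 16 alternative settings, with a smallest adjusted p of 0.0503 without the third Zeb2 KO array. No difference among the genotypes labelled as lacking Zeb2 passed: Zeb2 Id2 DKO minus Zeb2 KO was 0.18 [-0.20 to 0.55], and Nfil3 Zeb2 DKO minus Zeb2 KO was 0.34 [-0.03 to 0.72].

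Sema6d, a membrane semaphorin that signals through Plxna1, stood at 7.78, 7.45 and 7.18 in WT, 6.43, 6.63 and 7.30 for Zeb2 KO, 8.0 and 7.19 for Nfil3 Zeb2 DKO, then 6.54 and 6.63 for Zeb2 Id2 DKO. Both Zeb2 Id2 DKO arrays and the first 2 Zeb2 KO arrays were below all WT and Nfil3 Zeb2 DKO arrays, and the third Zeb2 KO array lay within the WT range. The difference was -0.88 [-1.51 to -0.26] between Zeb2 Id2 DKO and WT (adjusted p = 0.219) and -1.02 [-1.70 to -0.33] between Zeb2 Id2 DKO and Nfil3 Zeb2 DKO (adjusted p = 0.194). Without the third Zeb2 KO array, which enters only through the shared variance, the latter had an adjusted p of 0.0446.

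Sema4a, expressed on dendritic cells and known to costimulate T cells, was highest in Zeb2 Id2 DKO. It stood at 9.63, 9.55 and 9.66 in WT, 9.62, 9.49 and 9.77 for Zeb2 KO, 9.48 and 9.36 for Nfil3 Zeb2 DKO, then 9.92 and 9.93 for Zeb2 Id2 DKO, whose arrays lay above all others. The difference was 0.31 [0.10 to 0.52] from WT (adjusted p = 0.200), 0.30 [0.08 to 0.51] from Zeb2 KO (adjusted p = 0.383) and 0.50 [0.27 to 0.74] from Nfil3 Zeb2 DKO (adjusted p = 0.0595, and 0.0118 without the third Zeb2 KO array). Sema4f, another membrane semaphorin, had 7.78, 8.38 and 8.12 in WT, 8.09, 8.04 and 7.82 for Zeb2 KO, 7.60 and 7.97 for Nfil3 Zeb2 DKO, and 8.46 on both Zeb2 Id2 DKO arrays, again the highest (0.67 [0.26 to 1.08] from Nfil3 Zeb2 DKO, adjusted p = 0.146).

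The other 15 semaphorins had differences from WT of no more than 0.21 in size in any genotype. Sema3a, a secreted cue of axon and vessel growth, read 4.17 to 4.62 on the 10 arrays and stayed under the dim reference. Sema6b is represented by 2 probe sets with the same value on every array, so they are 1 measurement.

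Among the plexins, Plxnc1, the receptor of Sema7a, stood at 10.05, 10.06 and 10.00 in WT, 9.44, 9.75 and 9.65 for Zeb2 KO, 10.35 and 9.97 for Nfil3 Zeb2 DKO, then 9.39 and 9.72 for Zeb2 Id2 DKO. The arrays of Zeb2 KO and Zeb2 Id2 DKO were below all arrays of WT and Nfil3 Zeb2 DKO. The difference from WT was -0.42 [-0.70 to -0.15] in Zeb2 KO (adjusted p = 0.416) and -0.48 [-0.79 to -0.18] in Zeb2 Id2 DKO (adjusted p = 0.161), against 0.12 [-0.19 to 0.43] in Nfil3 Zeb2 DKO. Tested directly, Nfil3 Zeb2 DKO minus Zeb2 KO was 0.55 [0.24 to 0.85] (adjusted p = 0.374) and Zeb2 Id2 DKO minus Nfil3 Zeb2 DKO was -0.61 [-0.94 to -0.27] (adjusted p = 0.111), so neither passed.

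Plxnb2, a receptor for Sema4 family ligands, had the largest difference of the set. It stood at 8.43, 9.70 and 9.04 in WT, 8.60, 8.64 and 8.25 for Zeb2 KO, 9.02 and 9.01 for Nfil3 Zeb2 DKO, then 7.62 and 7.98 for Zeb2 Id2 DKO, the lowest of all. Zeb2 Id2 DKO minus WT was -1.25 [-1.88 to -0.62] (adjusted p = 0.0685) and Zeb2 Id2 DKO minus Nfil3 Zeb2 DKO -1.22 [-1.91 to -0.52] (adjusted p = 0.119). WT spread by 1.27 between arrays, and the lowest WT value came from the first array, which had the high B cell mean. Without that array the difference between Zeb2 Id2 DKO and WT was -1.56 and passed (adjusted p = 0.00911), as did that between the double knockouts (adjusted p = 0.0396). Without the second WT array, the highest, the difference from WT was -0.93 and did not pass (adjusted p = 0.112).

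Plxna1, the receptor of Sema6d, read 7.16, 7.44 and 7.23 in WT, 6.81, 7.02 and 7.39 for Zeb2 KO, 7.16 and 7.32 for Nfil3 Zeb2 DKO, then 7.17 and 7.12 for Zeb2 Id2 DKO, and overlapped WT throughout. Plxnd1, known as a receptor of secreted semaphorins, read 8.31, 8.35 and 8.16 in WT and 7.84 to 8.36 elsewhere. Plxna3 was highest on the third Zeb2 KO array (6.83, against 6.25 to 6.54 on the other 9). Zeb2 Id2 DKO minus Zeb2 KO was -0.30 [-0.56 to -0.04] (adjusted p = 0.556), and -0.19 without that array. Plxna4 read 5.65, 5.68 and 5.72 in WT and 5.44 to 5.80 elsewhere, under the dim reference.

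**Figure D4:**
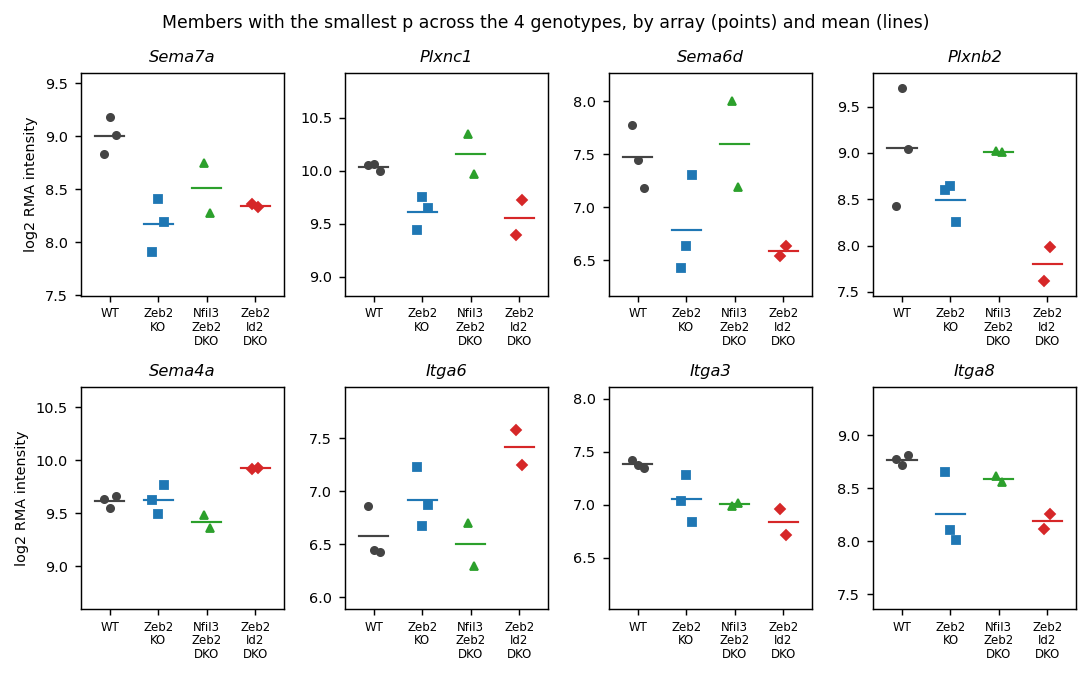
The 8 members with the smallest p in the F-test across the 4 genotypes (log2 RMA intensity; points are arrays, lines are genotype means). Zeb2 Id2 DKO and WT arrays lie apart in all 8 panels, which the choice by this test favours, so it is no separate result. None of the 8 had an adjusted p under 0.05 in the F-test (smallest 0.0980, for Sema7a).

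Among the integrin alpha chains that bind laminin and other matrix, Itga6 was highest in Zeb2 Id2 DKO and Itga3 lowest. Itga6, a laminin receptor chain, stood at 6.86, 6.45 and 6.43 in WT, 7.23, 6.67 and 6.87 for Zeb2 KO, 6.70 and 6.30 for Nfil3 Zeb2 DKO, then 7.58 and 7.25 for Zeb2 Id2 DKO. The Zeb2 Id2 DKO arrays were above all others, by 0.84 [0.41 to 1.27] over WT (adjusted p = 0.0717) and 0.91 [0.44 to 1.39] over Nfil3 Zeb2 DKO (adjusted p = 0.0870). Without the third Zeb2 KO array both passed (adjusted p = 0.0384 and 0.0419), and without the first WT array the comparison with WT did (0.0452). Itga3, another laminin receptor chain, stood at 7.42, 7.37 and 7.35 in WT, 7.03, 7.28 and 6.84 for Zeb2 KO, 6.99 and 7.02 for Nfil3 Zeb2 DKO, then 6.96 and 6.71 for Zeb2 Id2 DKO. Like Sema7a, it was below WT on every array labelled as lacking Zeb2: -0.33 [-0.57 to -0.08] (adjusted p = 0.50), -0.37 [-0.65 to -0.10] (adjusted p = 0.982) and -0.55 [-0.82 to -0.27] (adjusted p = 0.0681; 0.0122 without the third Zeb2 KO array and 0.0320 without the second Zeb2 KO array).

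Itga8, which pairs with Itgb1 and binds matrix proteins of the nephronectin kind, stood at 8.78, 8.72 and 8.81 in WT, 8.65, 8.11 and 8.01 for Zeb2 KO, 8.62 and 8.56 for Nfil3 Zeb2 DKO, then 8.12 and 8.26 for Zeb2 Id2 DKO. WT and Nfil3 Zeb2 DKO were the higher groups, and the first Zeb2 KO array lay near them. Zeb2 Id2 DKO minus WT was -0.58 [-0.93 to -0.22] (adjusted p = 0.142), and it passed without the first (0.0116) or the third (0.0389) Zeb2 KO array. Itga1, a collagen receptor chain, had 7.70, 7.99 and 7.79 in WT and 8.35 and 8.18 in Zeb2 Id2 DKO, with 7.03 on the third Zeb2 KO array and 8.04 and 7.94 on the other 2. Itgb2l read 6.52, 6.41 and 6.43 in WT and 6.59 to 7.02 in the other genotypes, above WT on every array (0.36 [0.09 to 0.64] in Zeb2 Id2 DKO, adjusted p = 0.277). The neutrophil marker mean was likewise above WT on each of those arrays (7.07 to 8.92 against 6.53 to 6.77), and the array with the highest Itgb2l also had the highest neutrophil mean, whose part was not tested.

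The shared variance takes in the third Zeb2 KO array, so these calls depend on which arrays estimate it. When only the arrays of the compared groups entered the fit, 5 members were called between Zeb2 Id2 DKO and WT (Itga3, Itga6, Itga8, Sema6d and Sema7a, adjusted p from 0.0113 to 0.0335), while 2.78% of all genes were. Between Zeb2 Id2 DKO and Nfil3 Zeb2 DKO 4 were called (Itga6, Plxnb2, Sema4a and Sema4f), with 4.18% of all genes. With all groups but without the third Zeb2 KO array, 4 members (Itga3, Itga6, Itga8 and Plxnb2) and 3.81% of all genes were called between Zeb2 Id2 DKO and WT, and 3 members (Itga6, Sema4a and Sema6d) and 3.53% of all genes between the double knockouts. Under none of these settings was a member called between Zeb2 KO and WT, between Nfil3 Zeb2 DKO and WT, or between either double knockout and Zeb2 KO.

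Partner genes of these receptors included calls. Their lists were chosen with earlier results of these data known, so a share above that of all genes is no separate support. Of 96 measured genes on 3 lists (27 integrin ligands, 33 integrin activators and cytoplasmic adaptors, 36 partners of semaphorins and plexins), 6 were called between Zeb2 Id2 DKO and WT (6.25%, against 1.43% of all genes), 5 up and 1 down, and 20 had an unadjusted p under 0.05 (20.8%, against 10.2%). Against Zeb2 KO 1 was called in Zeb2 Id2 DKO (1.04%, against 0.497%), and 3 were between the double knockouts (3.12%, against 0.792%). For Zeb2 KO against WT 0 were called and 14 had an unadjusted p under 0.05 (14.6%, against 7.39%). For Nfil3 Zeb2 DKO 0 were called against either genotype, with 6 at an unadjusted p under 0.05 against WT (6.25%, against 4.16%) and 15 against Zeb2 KO (15.6%, against 8.5%). The list medians in Zeb2 Id2 DKO against WT were -0.05, -0.01 and 0.04.

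Plxdc1, which encodes a membrane protein with a plexin-like domain, rose in Zeb2 Id2 DKO. It stood at 9.99 and 9.83 there, at 9.06, 9.06 and 8.83 in WT, 9.25, 8.95 and 9.19 for Zeb2 KO, and 8.84 and 8.97 for Nfil3 Zeb2 DKO, with no overlap. The difference was 0.93 from WT (SE 0.12, adjusted p = 0.00379), 0.78 from Zeb2 KO (SE 0.12, adjusted p = 0.0166) and 1.0 from Nfil3 Zeb2 DKO (SE 0.13, adjusted p = 0.00618). It was also called in the F-test. Each of the 3 calls was lost without the first Zeb2 Id2 DKO array, that against Zeb2 KO also without the second Zeb2 Id2 DKO or second Zeb2 KO array, and that against Nfil3 Zeb2 DKO also without the first array of that genotype (adjusted p up to 0.0614, 0.244 and 0.0985). The call against Zeb2 KO was also lost with the replicate block (0.0597) and with only the compared groups (0.147).

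Met, the receptor of hepatocyte growth factor, which associates with B-type plexins, rose from 9.24, 9.10 and 9.14 in WT to 9.95 and 10.11 in Zeb2 Id2 DKO, with 9.43, 9.51 and 8.94 for Zeb2 KO (0.87, SE 0.15, adjusted p = 0.0185). Its call was lost without the second or the third WT array or either Zeb2 Id2 DKO array. Vcl, or vinculin, which links integrins to actin, rose from 8.63, 8.38 and 8.41 in WT and 8.32 and 8.39 in Nfil3 Zeb2 DKO to 9.19 and 9.02 in Zeb2 Id2 DKO, with 8.68, 8.94 and 8.54 for Zeb2 KO (0.63 and 0.75, adjusted p = 0.0377 and 0.0390). Either call was lost with any of 7 arrays left out, among them both Zeb2 Id2 DKO and both Nfil3 Zeb2 DKO arrays. With a further quantile normalization neither passed (0.0503 against WT and 0.0602 between the double knockouts), and with the replicate block the call against WT was lost (0.102).

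Among the integrin ligands, Cdh1, the E-cadherin bound by the integrin of Itgae, rose from 6.01, 5.93 and 5.96 in WT to 6.81 and 6.91 in Zeb2 Id2 DKO (0.89, adjusted p = 0.0332), with 6.61, 6.35 and 5.85 for Zeb2 KO. Icam4, an ICAM of red cells, rose from 6.09, 5.95 and 6.21 to 6.58 and 6.82 (0.62, adjusted p = 0.0218), with 6.23, 6.18 and 6.27 for Zeb2 KO. In Nfil3 Zeb2 DKO, Icam4 read 6.23 and 6.42. The erythroid mean was 7.96 and 7.78 in Zeb2 Id2 DKO and 7.30 to 7.49 in Zeb2 KO. It was 6.84 to 7.30 in WT, then 6.25 and 7.12 in Nfil3 Zeb2 DKO. A relation of Icam4 to this mean was not tested. The WT means of Cdh1 (5.97) and Icam4 (6.08) lay only just above the dim reference (5.87).

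Vcam1, the ligand of the Itga4 and Itgb1 pair, fell from 7.69, 8.11 and 8.0 in WT to 6.69 and 7.05 in Zeb2 Id2 DKO (-1.06, SE 0.21, adjusted p = 0.0328). The Zeb2 KO arrays, at 6.73, 7.04 and 7.49, were also below all WT arrays. Vcam1 is also made by red pulp macrophages. Of the 11 markers of that list 2 were called between Zeb2 Id2 DKO and WT, Vcam1 among them. Over the other 10 markers the median difference of Zeb2 Id2 DKO from WT was 0.00 (5 of them higher, 5 lower). Their mean was 6.15, 6.45 and 6.47 on the WT arrays, then 6.07 and 6.21 on those of Zeb2 Id2 DKO. The part of macrophages in the fall of Vcam1 was not tested. F11r, an adhesion molecule bound by LFA-1, fell between Nfil3 Zeb2 DKO (6.43 and 6.20) and Zeb2 Id2 DKO (5.69 and 5.58). The difference was -0.68 (adjusted p = 0.0414). For F11r the Zeb2 KO arrays read 5.66, 5.95 and 5.85 against 6.05, 6.12 and 6.30 in WT. The F11r means of Zeb2 Id2 DKO (5.64) and Zeb2 KO (5.82) lay under the dim reference (5.87).

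Of the 10 arrays, leaving out any of 7 ended the call of Cdh1, any of 7 that of F11r, any of 6 that of Vcam1 and any of 3 that of Icam4, either Zeb2 Id2 DKO array among them each time (largest adjusted p 0.289, 0.384, 0.345 and 0.256). The calls of Cdh1 and F11r were also lost with quantile normalization (0.0559 and 0.0532) and with the replicate block (0.060 and 0.0619).

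**Figure D5:**
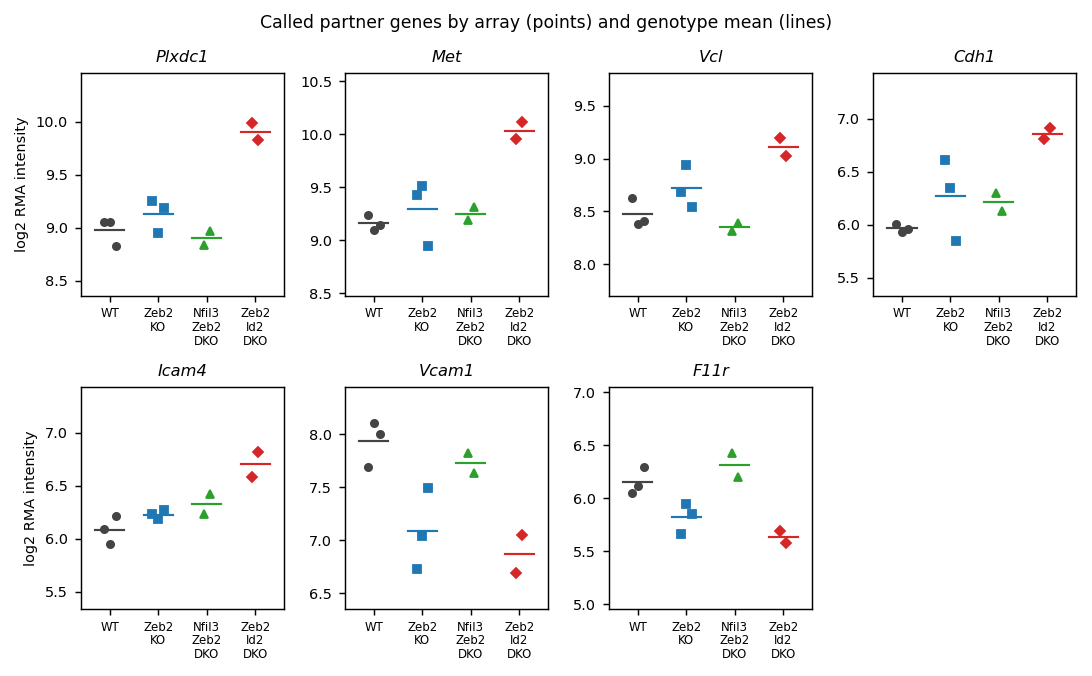
The 7 called partner genes by genotype (log2 RMA intensity; points are arrays, lines are means; 3, 3, 2 and 2 arrays). In Zeb2 Id2 DKO the arrays of Plxdc1 (9.99 and 9.83), Met, Vcl, Cdh1 and Icam4 lie above all other arrays, those of Vcam1 lie below all WT arrays, and those of F11r below all WT and Nfil3 Zeb2 DKO arrays.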

How the data were processed

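The deposited table holds linear intensities of 28853 probe sets on 10 arrays, normalized by the authors; the submitters' processing notes name RMA and Affymetrix Expression Console. Versions, probe annotation and genome build are not given in the sources used here. log2 of the deposited intensities was taken. Probe sets annotated to 1 gene (21789; 1621 named several genes and 5443 none) were kept, and where a gene had several (999 genes) the one with the highest mean over all arrays stood for it, which gave 19938 genes. The 55 members have 57 probe sets, and gene identifiers of all 55 matched the reference table (GRCm38.p6).

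All 10 arrays entered 1 limma 3.58.1 fit (R 4.3.3), with 1 coefficient for each genotype (6 residual and 4.47 prior degrees of freedom), with Benjamini-Hochberg adjustment over all genes. The test was checked on simulated data with independent noise of the same spread in every group. That setting holds no outlying array, unlike these data with the third Zeb2 KO array. The number of arrays limits the precision: the median 95% interval of a member reached 0.22 to 0.27 to either side.

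Members and lists were chosen with earlier results of these data known. Members given array by array were the 3 with the smallest p in each comparison and those known in dendritic or myeloid cells. Partner genes named are the called ones. The macrophage list without Vcam1 was added after its values were seen. Alternatives were the mean of a gene's probe sets, a further quantile normalization, dim genes (mean under 6) left out, an intensity trend with robust prior, the replicate number as a block, only the compared groups, and each array left out. Background correction and scan batches could not be examined from these values.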

Additional observations from a re-analysis of the deposited data

How the results depend on the processing

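None of the 18 member results with the smallest p changed direction under any of the 16 alternatives, and none of the 10 partner results did. Both sets were picked by their p, which favours a stable direction. Members with small differences did change direction, such as Itgax between Zeb2 KO and WT, which kept it in 11 of 16. Members called, 0 throughout the main fits, moved as follows. Between Zeb2 Id2 DKO and WT they were 1 with the replicate block and 5 with only the compared groups, and 0 to 4 with 1 array left out. Between the double knockouts they were 1, 4 and 0 to 3 under the same settings. In the F-test they were 1 with the block and 0 to 3 with 1 array left out. In the other 4 comparisons they were 0 under every alternative. The highest counts with 1 array left out came without Zeb2 KO replicate 3.

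Genes called between Zeb2 KO and WT (4) became 8 with the block, 1 with only the compared groups and 0 to 165 with 1 array left out. For Nfil3 Zeb2 DKO against WT (1) they became 2 with only the compared groups and 1 to 7. For Zeb2 Id2 DKO against WT (286) they became 183 with the block, 554 with only the compared groups and 67 to 760. Against Zeb2 KO they ran from 1 to 106 in Nfil3 Zeb2 DKO (1), while those of Zeb2 Id2 DKO (99) became 20 with only the compared groups and 25 to 148. Between the double knockouts (158) they became 833 with only the compared groups and 23 to 704, and in the F-test (151) 42 to 708. Partner genes called between Zeb2 Id2 DKO and WT (6) became 10 with only the compared groups and 0 to 13. Against Zeb2 KO (1 in Zeb2 Id2 DKO) they became 0 with the block, 0 with only the compared groups and 0 to 3. Between the double knockouts (3) they became 1 with quantile normalization, 15 with only the compared groups and 0 to 11. In the F-test (1) they became 2 with the block and 0 to 13. In Zeb2 KO against WT they were 0 to 3, and between Nfil3 Zeb2 DKO and Zeb2 KO 0 to 2, with 1 array left out. The cause was not tested. Fits that leave a genotype with 1 array assume that it varies like the other groups.

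Deviations of same-numbered arrays from their group means correlated at -0.31 to 0.16 over all genes. Of the 3 WT arrays, 0 matched best the Zeb2 KO array of their own number. So few arrays a genotype cannot show whether the replicate numbers mark pairs or a shared batch. With the replicate block Itga6 was the member called (adjusted p = 0.00878 against WT and 0.00556 between the double knockouts).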
